A study of Homo sapiens with 15 samples.

Results

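The PRMT5 methylosome is the complex in which the arginine methyltransferase PRMT5 works with its partner WDR77 and with adaptor proteins that bring it substrates. The 5 genes described here, PRMT5, WDR77, CLNS1A, RIOK1 and COPRS, were taken by gene symbol from the 60649 genes of each count table. RNA-seq was run on HSC-5, a human cutaneous squamous cell carcinoma line, in 5 groups of 3 biological replicates, 15 libraries in all. The question behind the design was what the loss of PRMT5 or of WDR77 does to transcript levels in squamous carcinoma cells. Cells that express Cas9 were infected with lentivirus carrying a single guide RNA (sgRNA). The sgNeg group is the control; its labels give the genotype as WT, and the study describes sgNeg as an empty vector in its protein blots. The sgPRMT5-1 and sgPRMT5-2 groups received different guides against PRMT5 and are labelled PRMT5 Knockout. The sgWDR77-1 and sgWDR77-2 groups received different guides against WDR77 and are labelled WDR77 Knockout. Neomycin is the treatment named for every library, the controls included. The 6 libraries of both guides to a gene were also pooled as PRMT5KO and WDR77KO. The study's methods call the knockouts it sequenced complete and checked by qRT-PCR, and whether they were clones or mixed populations is not given in the sources used here.

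Reads assigned to genes numbered 5434211 to 5824192 per library in sgNeg, 5958936 to 6704352 in sgPRMT5-1 and 6058519 to 6730428 in sgPRMT5-2. They numbered 5146711 to 5489385 in sgWDR77-1 and 5225996 to 5613325 in sgWDR77-2. Levels are given as CPM, a gene's count relative to all reads on genes of its library after TMM scaling, which centres most genes between libraries. Values within a group are in the order of replicates 1, 2 and 3. Levels of different genes are compared only per length, as CPM per kilobase of exon. Differences between groups are log2 fold changes from limma with voom weights, fitted over all genes that passed a filter on low counts. They are given with their standard error (SE), and a gene is called where its Benjamini-Hochberg adjusted p over all genes tested was under 0.05. All 5 members passed that filter in each of the 9 comparisons made.

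PRMT5 places symmetric dimethyl marks on arginines of histones, Sm proteins of the splicing machinery and many other proteins. WDR77, also called MEP50, is a WD-repeat protein that forms a stable core with PRMT5 and presents substrates to it. CLNS1A (pICln), RIOK1 and COPRS are substrate adaptors: pICln brings in Sm proteins, RIOK1 competes with pICln for the same surface of PRMT5 and brings in nucleolin, and COPRS directs the complex toward histones. PRMT5 and WDR77 are abundant in many carcinomas, those of squamous epithelium among them.

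The cell type was checked against marker genes. Of 10 squamous keratinocyte markers, 9 passed the filter in the pooled comparisons and none was at 0 in all 15 libraries; their summed level was 2233 to 3273 CPM per library, and SFN was the most abundant per length in sgNeg, at 389 CPM per kb. The sum was 2726 to 3273 CPM in sgNeg, and lower in every library of sgPRMT5-2 (2245 to 2345 CPM) and of sgWDR77-1 (2233 to 2446 CPM). It was 2683 to 2884 CPM in sgPRMT5-1 and 3017 to 3107 CPM in sgWDR77-2, overlapping sgNeg. KRT14, a keratin of basal keratinocytes, was nearly absent, with 3 to 4 counts per sgNeg library. Markers of other cell types were present at low levels. Summed over 5 markers each, fibroblast genes reached 6.68 to 15.5 CPM per library, melanocyte genes 2.55 to 7.48 CPM, endothelial genes 12.7 to 36.1 CPM and leukocyte genes 0 to 0.555 CPM. The most abundant of them per length in sgNeg were COL1A1 (1.40 CPM per kb), PMEL (1.25) and CDH5 (3.08). DCN and COL1A2, TYR and DCT, KDR and TEK, and all 5 leukocyte markers had 0 counts in sgNeg. The endothelial sum was 31.3 to 36.1 CPM in sgWDR77-1 and 16.6 to 24.9 CPM in sgNeg. In PRMT5KO against sgNeg, 1 of 2 tested endothelial markers (VWF, -1.92, limma adjusted p = 0.0181) and 1 of 2 tested melanocyte markers (PMEL, -1.13, limma adjusted p = 0.0391) were lower, where 17% of all genes tested were called. VWF, named after its values were seen, had 14 to 21 counts per sgNeg library, and it was also lower in PRMT5KO than in WDR77KO (-1.41, limma adjusted p = 0.0283). In PRMT5KO against sgNeg, 1 squamous marker was higher (SFN, log2 fold change 0.40) and 5 were lower, PKP1 (-2.35), KRT6A (-2.66) and DSG3 (-0.70) among them, and these 6 calls are 66.7% of the 9 tested beside that 17%. In WDR77KO against sgNeg, KRT5 (-3.42), KRT6A (-2.92), DSG3 (-0.82) and PKP1 (-1.23) were called lower, 44.4% of the 9 tested beside 3.39% of all genes. The part of these marker differences in the members' values was not tested.

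The libraries were compared within groups before any test. In a chi-square comparison of counts between replicates, sgWDR77-1 replicate 1 gave 12.5 per degree of freedom against replicate 2 and 17.7 against replicate 3, while replicates 2 and 3 gave 3.21. Replicate pairs in the other groups gave 1.55 to 9.16, so no pair was alike enough to be a single library listed again. The highest of these came from sgNeg replicate 2, with 9.16 against replicate 1 and 6.44 against replicate 3, while replicates 1 and 3 gave 3.86. It also had 7.16% of its listed reads in no gene, beside 2.84% and 3.56% in replicates 1 and 3. In sgWDR77-1 this share was 3.57% in replicate 1 and 6.04% and 5.70% in replicates 2 and 3. Because of the chi-square values, the members' fold changes that rest on sgWDR77-1 are also given without its replicate 1. Without sgNeg replicate 2, the log2 fold change of PRMT5 was -0.69 in PRMT5KO, -0.81 in sgPRMT5-1 and -0.58 in sgPRMT5-2 against sgNeg, each still called lower. That of WDR77 was -1.89 in WDR77KO, -1.45 in sgWDR77-1 and -2.32 in sgWDR77-2, also each called lower. RIOK1 (0.62) and COPRS (0.38) were still called higher in sgPRMT5-2, and RIOK1 in PRMT5KO (0.43, limma adjusted p = 0.116) was no longer called. Of the 9 comparisons, 6 share the same 3 sgNeg libraries, so a high or low sgNeg value enters each of them.

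PRMT5 (ENSG00000100462.16) lies on the minus strand at chr14:22920525-22929408 of hg38, and its reference transcript has 17 exons and 637 codons. The study made a guide-resistant PRMT5 cDNA by recoding 6 codons and used it with sgPRMT5-1, so these codons mark the stretch recoded against that guide. They are codons 385 to 390, in exon 11, shown here with neighbouring bases of that exon from the GENCODE v44 transcript and the hg38 genome, on the gene's strand (chr14:22924270-22924361). Capitals mark the 18 bases of the recoded codons, of which the recoding changed 6.

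PRMT5 exon 11: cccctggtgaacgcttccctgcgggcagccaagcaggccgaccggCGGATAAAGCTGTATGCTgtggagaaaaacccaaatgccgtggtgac

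PRMT5 measured 59.1, 49.6 and 67.8 CPM in sgNeg. It measured 33.0, 35.8 and 41.4 CPM in sgPRMT5-1 and 44.1, 44.5 and 39.4 CPM in sgPRMT5-2. Every library of either PRMT5 guide lay below every control library, and the closest pair was 44.5 against 49.6 CPM. The underlying counts were 302 to 374 in sgNeg, 211 to 242 in sgPRMT5-1 and 233 to 284 in sgPRMT5-2. Transcripts of the targeted gene were therefore lower but far from lost: group means were 58.9 ± 9.10 CPM (SD, n = 3) in sgNeg, 36.8 ± 4.29 in sgPRMT5-1 and 42.7 ± 2.85 in sgPRMT5-2, which is 62.4% and 72.6% of the control mean. These reads count transcript amount over all exons, not the sequence at the cut. In bulk RNA, a smaller share of edited cells and a smaller loss of transcript in each cell cannot be told apart.

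With both guides pooled, the log2 fold change of PRMT5 against sgNeg was -0.57 (SE 0.119, 95% interval -0.83 to -0.32, limma adjusted p = 0.00874), lower in 6 of 6 libraries. For sgPRMT5-1 alone it was -0.69 (SE 0.131, limma adjusted p = 0.00525) and for sgPRMT5-2 alone -0.45 (SE 0.110, limma adjusted p = 0.00257). The guides did not differ from each other past the threshold: sgPRMT5-2 against sgPRMT5-1 gave 0.23 (95% interval 0.00 to 0.46, limma adjusted p = 0.146). Without sgPRMT5-1 replicate 3, the highest of its group, that difference was 0.32 and passed the threshold (limma adjusted p = 0.0117). By p, PRMT5 ranked 411 of 14071 genes tested in PRMT5KO.

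Under the WDR77 guides, PRMT5 measured 54.5, 64.2 and 54.4 CPM in sgWDR77-1 and 79.9, 65.2 and 64.4 CPM in sgWDR77-2. The sgWDR77-1 libraries lay within the control range, and those of sgWDR77-2 overlapped its upper end. PRMT5 was not called in WDR77KO against sgNeg (log2 fold change 0.12, 95% interval -0.16 to 0.40, limma adjusted p = 0.733). It was not called for either guide alone, with 0.01 for sgWDR77-1 and 0.24 for sgWDR77-2. Without sgWDR77-1 replicate 1 the WDR77KO value was 0.17 and the sgWDR77-1 value 0.0331. Control libraries moved these values more: WDR77KO gave 0.00699 without sgNeg replicate 2 and 0.22 without sgNeg replicate 3, sgWDR77-1 gave -0.11 and 0.11, and sgWDR77-2 gave 0.13 and 0.34. Between the WDR77 guides, sgWDR77-2 against sgWDR77-1 gave 0.26 (limma adjusted p = 0.468), with no overlap of libraries. That difference was 0.21 without sgWDR77-1 replicate 1. Tested directly, PRMT5 was lower in PRMT5KO than in WDR77KO by -0.68 (SE 0.107, limma adjusted p = 0.00101), in 6 against 6 libraries that did not overlap, and by -0.73 without sgWDR77-1 replicate 1.

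**Figure D1:**
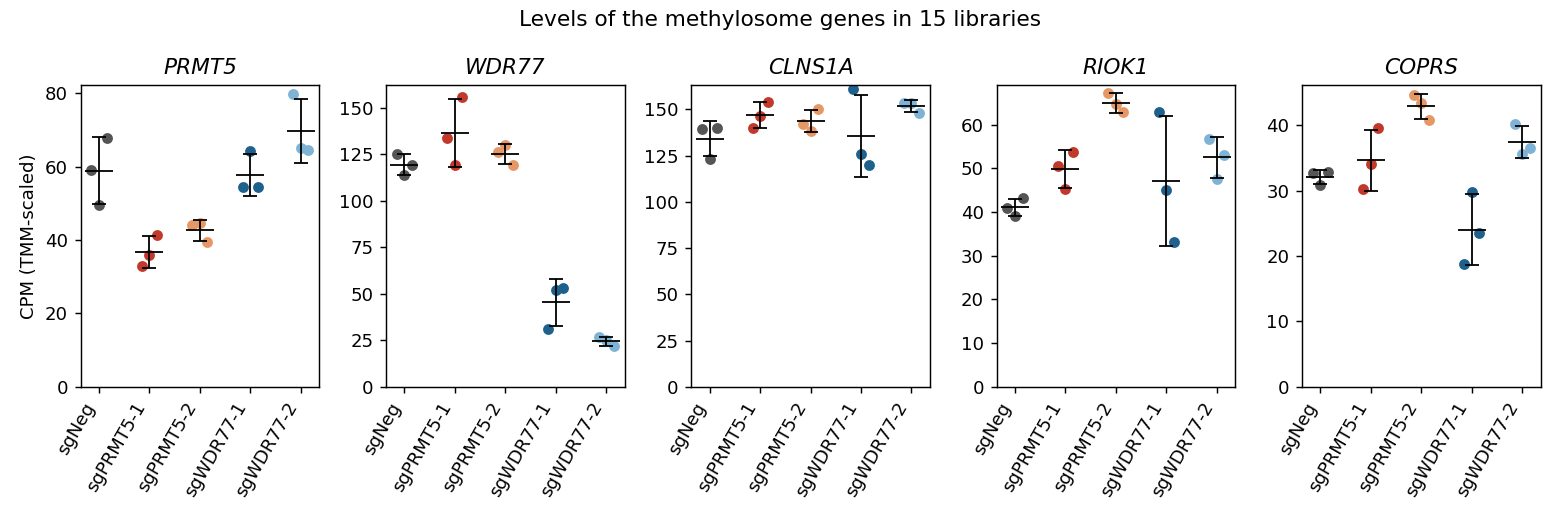
Level of each of the 5 genes in CPM (vertical axes, each starting at 0) in the 5 groups; points are libraries, dashes are means of 3 and error bars are the SD. PRMT5 is lowest under its own guides, WDR77 under its own guides, and RIOK1 and COPRS are highest in sgPRMT5-2.

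WDR77 (ENSG00000116455.14) lies on the minus strand at chr1:111439890-111449256 and has 10 exons and 342 codons. Its guide-resistant cDNA, used with sgWDR77-2, was recoded at codons 74 to 79, in exon 2. They are shown with neighbouring bases of that exon on the gene's strand in hg38 (chr1:111448638-111448745), with the 18 bases of the recoded codons in capitals, 6 of which were changed.

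WDR77 exon 2: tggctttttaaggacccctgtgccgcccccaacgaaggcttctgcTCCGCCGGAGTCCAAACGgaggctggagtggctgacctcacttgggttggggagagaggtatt

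WDR77 measured 125, 114 and 119 CPM in sgNeg. It measured 30.8, 52.0 and 53.3 CPM in sgWDR77-1 and 26.6, 24.9 and 22.0 CPM in sgWDR77-2. All 6 libraries with a WDR77 guide lay far below the controls, and the 3 of sgWDR77-2 lay below the 3 of sgWDR77-1. Counts were 657 to 739 in sgNeg, 167 to 292 in sgWDR77-1 and 122 to 141 in sgWDR77-2. Group means were 119 ± 5.70 CPM (SD, n = 3) in sgNeg, 45.4 ± 12.6 in sgWDR77-1 and 24.5 ± 2.33 in sgWDR77-2, or 38.0% and 20.5% of the control mean.

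The log2 fold change of WDR77 in WDR77KO against sgNeg was -1.86 (SE 0.216, 95% interval -2.32 to -1.40, limma adjusted p = 9e-05), lower in 6 of 6 libraries. It was -1.40 for sgWDR77-1 (SE 0.175, limma adjusted p = 0.00141) and -2.29 for sgWDR77-2 (SE 0.115, limma adjusted p = 1.78e-08), where WDR77 ranked 2 of 14038 genes by p. Without sgWDR77-1 replicate 1, the sgWDR77-1 value was -1.17 and the WDR77KO value -1.83, both still called. Between the guides, sgWDR77-2 against sgWDR77-1 gave -0.86 (95% interval -1.32 to -0.41), with no overlap of libraries but a limma adjusted p of 0.177. Without sgWDR77-1 replicate 1, the lowest of its group, that difference was -1.13 and was called (limma adjusted p = 0.000554). It was also called with no filter on low counts (limma adjusted p = 0.0380) and with all 15 libraries in a single fit (limma adjusted p = 0.0157).

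Under the PRMT5 guides, WDR77 measured 134, 119 and 156 CPM in sgPRMT5-1 and 126, 130 and 119 CPM in sgPRMT5-2. These libraries overlapped the controls, with 1 of them, sgPRMT5-1 replicate 3, well above the rest. WDR77 was not called in PRMT5KO against sgNeg (log2 fold change 0.11, 95% interval -0.08 to 0.30, limma adjusted p = 0.394). Without sgPRMT5-1 replicate 3 that value was 0.05. Against WDR77KO it was higher in PRMT5KO by 1.99 (SE 0.172, limma adjusted p = 2.33e-06), and by 1.97 without sgWDR77-1 replicate 1. For both targeted genes, then, transcripts were lower under their own guides, and those of the partner were not called in either direction.

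**Figure D2:**
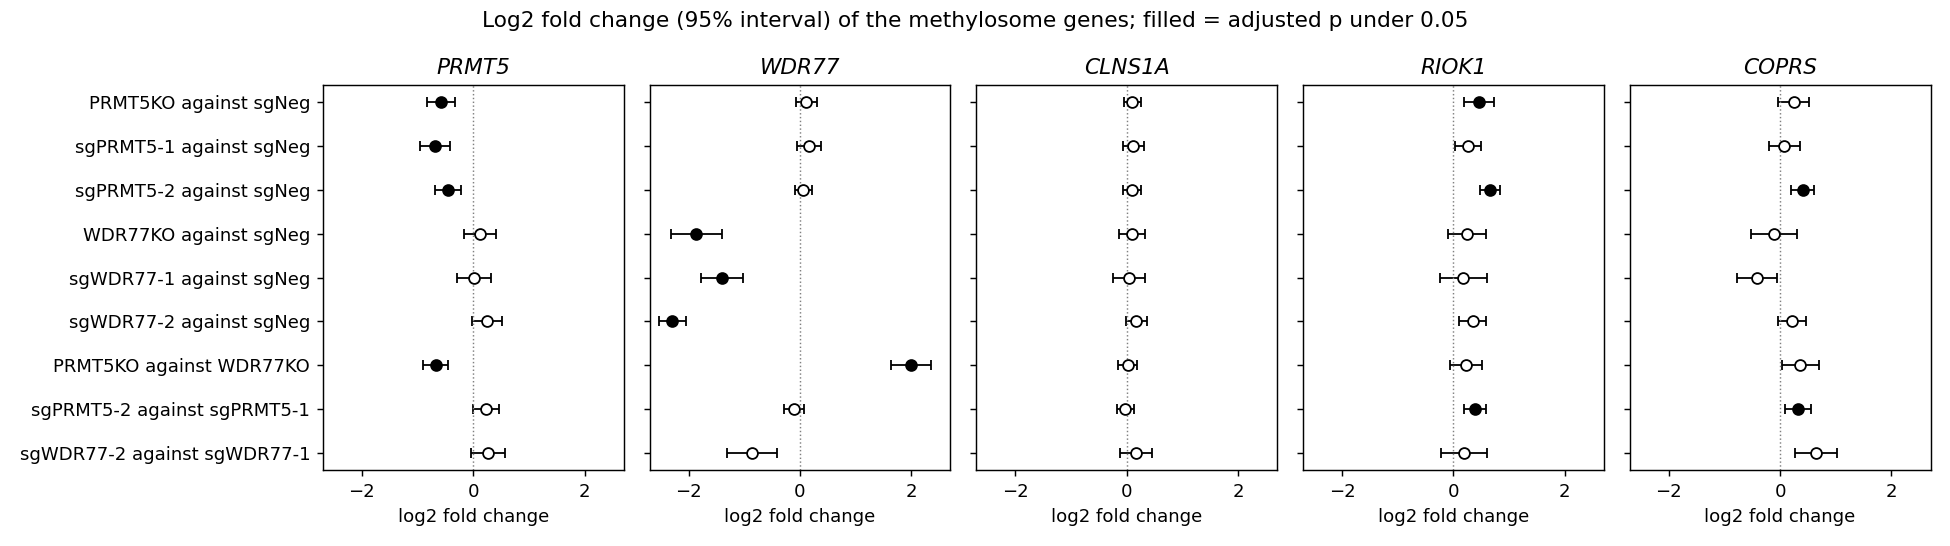
Log2 fold change of each gene (horizontal axis) in each comparison, with its 95% interval; filled points have a limma adjusted p under 0.05. The WDR77 guides move WDR77 by -1.40 and -2.29, the PRMT5 guides move PRMT5 by -0.69 and -0.45, and the intervals for CLNS1A include 0 throughout.

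Per length of all exons, the members could be ordered in control cells. In sgNeg, WDR77 stood at 44.4 ± 2.12 CPM per kb (SD, n = 3), CLNS1A at 29.3 ± 2.09, COPRS at 23.3 ± 0.779, PRMT5 at 18.0 ± 2.78 and RIOK1 at 14.0 ± 0.693. No 2 neighbours in that order overlapped between libraries. Among 12186 protein-coding genes ranked per length in sgNeg, WDR77 stood at percentile 93.2, CLNS1A at 88.6, COPRS at 85.1, PRMT5 at 80.3 and RIOK1 at 74.7. On this scale PRMT5 lay below WDR77, CLNS1A and COPRS, and the place of COPRS depended on the length used. With the length of the reference transcript, an alternative chosen after the data were seen, COPRS moved to 37.0 CPM per kb and CLNS1A to 45.0, both over 1.5 times their values. WDR77 at 48.6 then overlapped CLNS1A between libraries, PRMT5 stood at 25.5 and RIOK1 at 16.4, and the order of the means was the same. With only the exon bases that no other gene shares as length, also chosen after the data were seen, PRMT5 at 25.0 CPM per kb stood above COPRS at 23.3 and overlapped both COPRS and CLNS1A, while WDR77 stood at 62.1.

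The order changed with the guide. Per length of all exons, in sgPRMT5-1, PRMT5 (11.2 CPM per kb) fell below RIOK1 (17.0), behind WDR77 (50.7), CLNS1A (32.0) and COPRS (25.1), with no overlap between neighbours. In sgPRMT5-2 the order was the same, PRMT5 at 13.0 and RIOK1 at 22.1 CPM per kb, except that CLNS1A (31.4) and COPRS (31.1) overlapped. In sgWDR77-1, CLNS1A led at 29.6 CPM per kb, and PRMT5 (17.6), COPRS (17.4), WDR77 (16.9) and RIOK1 (16.0) could not be ordered beyond their spread on that length. In sgWDR77-2, WDR77 was last at 9.12 CPM per kb, behind CLNS1A (33.1), COPRS (27.2), PRMT5 (21.3) and RIOK1 (17.8), and no neighbours overlapped. These orders depended in part on the length used. With the unshared exon bases, PRMT5 (15.6 CPM per kb) overlapped RIOK1 in sgPRMT5-1, CLNS1A overlapped PRMT5 (24.5) in sgWDR77-1, and PRMT5 (29.7) stood above COPRS in sgWDR77-2 and overlapped COPRS and CLNS1A. In sgWDR77-1 the unshared bases put PRMT5 (at least 23.1) above COPRS (at most 21.6) and RIOK1 (at most 21.4), and the reference transcript put WDR77 (18.5, at most 21.7) below PRMT5 (25.0, at least 23.6) and just below every COPRS library (27.7 on average). With the reference transcript, WDR77 overlapped CLNS1A in sgPRMT5-1, and in sgPRMT5-2 COPRS (49.4) stood above CLNS1A (48.2) and overlapped it and WDR77 (51.0). With each of these lengths PRMT5 had the lowest mean under both PRMT5 guides and WDR77 the lowest in sgWDR77-2.

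The ratio of WDR77 to PRMT5 within each library, both per length, put the partners on 1 scale. It was 2.58, 2.80 and 2.14 in sgNeg, a mean of 2.51 ± 0.333 (SD, n = 3). In sgPRMT5-1 it was 4.94, 4.07 and 4.58, and in sgPRMT5-2 it was 3.49, 3.56 and 3.69, all above the controls. In sgWDR77-1 it was 0.691, 0.988 and 1.20, and in sgWDR77-2 it was 0.406, 0.466 and 0.416, all below the controls. The 5 groups did not overlap in this ratio. The adaptors shifted against PRMT5 in the same libraries: RIOK1 to PRMT5 averaged 0.786 in sgNeg, 1.52 in sgPRMT5-1 and 1.70 in sgPRMT5-2, and CLNS1A to PRMT5 averaged 1.65, 2.87 and 2.42. COPRS to PRMT5 averaged 1.31 in sgNeg, 2.24 in sgPRMT5-1 and 2.39 in sgPRMT5-2, and 0.984 and 1.28 in the WDR77 guide groups. These ratios are descriptions and were not tested, and they follow in part from the lower PRMT5 level already given.

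**Figure D3:**
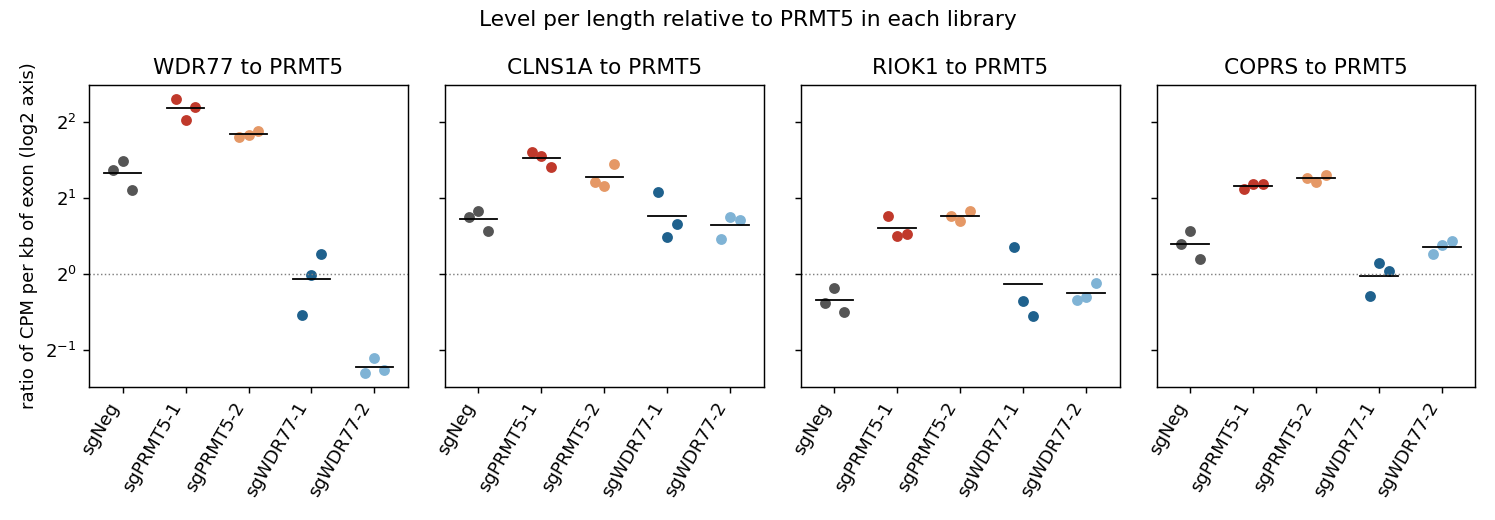
Ratio of WDR77, CLNS1A, RIOK1 and COPRS to PRMT5 per length in each library (vertical axis, log2 scale) by group; points are libraries and lines are means of 3. The WDR77 ratio is 2.14 to 2.80 in sgNeg, at least 3.49 in the 6 libraries with a PRMT5 guide and at most 1.20 in the 6 with a WDR77 guide.

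The adaptors bind PRMT5 through a short shared peptide, the PRMT5-binding motif. A search of the reference proteins of 19061 protein-coding genes, translated from GENCODE v44 transcripts, found it in 3 genes (0.0157%), and these were the 3 adaptors. The pattern searched was the motif as known in these adaptors, so finding it in them was settled in advance. The search shows only that no other reference protein held that pattern. The coding sequence around the motif is shown from hg38 on each gene's strand because the motif is the feature these members have in common. Capitals mark the 18 bases that encode it. It falls in codons 228 to 233 of 237 in CLNS1A (exon 6 of 7, minus strand, chr11:77619631-77619690), in codons 14 to 19 of 568 in RIOK1 (exon 1 of 17, plus strand, chr6:7390012-7390073) and in codons 177 to 182 of 184 in COPRS (exon 4 of 4, minus strand, chr17:31852142-31852195).

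CLNS1A: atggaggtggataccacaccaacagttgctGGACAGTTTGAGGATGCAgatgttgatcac
RIOK1: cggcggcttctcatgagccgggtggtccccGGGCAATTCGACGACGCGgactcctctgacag
COPRS: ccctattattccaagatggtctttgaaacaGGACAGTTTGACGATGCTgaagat

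The motif thus stands near the end of the protein in CLNS1A and COPRS and near the start in RIOK1. A match is a description of these sequences and says nothing about the transcript levels that follow.

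CLNS1A (ENSG00000074201.9, chr11:77514936-77637794) measured 139, 123 and 140 CPM in sgNeg. It measured 140, 147 and 154 CPM in sgPRMT5-1, 142, 138 and 150 CPM in sgPRMT5-2, 161, 126 and 120 CPM in sgWDR77-1 and 154, 154 and 148 CPM in sgWDR77-2. The groups overlapped the controls, except that all 3 sgWDR77-2 libraries stood above them. CLNS1A was not called in any of the 9 comparisons. Its log2 fold change was 0.10 in PRMT5KO (95% interval -0.05 to 0.26, limma adjusted p = 0.340) and 0.09 in WDR77KO (95% interval -0.14 to 0.32, limma adjusted p = 0.740) against sgNeg. In sgWDR77-2 alone it was 0.17 (95% interval -0.01 to 0.36, limma adjusted p = 0.269). In sgWDR77-1 alone it was 0.0356 (limma adjusted p = 0.919), and -0.11 without its replicate 1. For sgWDR77-2 against sgWDR77-1 it was 0.16 (limma adjusted p = 0.637), and 0.28 without that replicate. Without sgNeg replicate 2 the PRMT5KO value was 0.0444 and the WDR77KO value 0.0406, and without sgWDR77-1 replicate 1 the WDR77KO value was 0.0743. Between PRMT5KO and WDR77KO it was 0.02 (95% interval -0.15 to 0.19), and 0.0524 without that library. The sign of the difference between the knockouts turned with RLE size factors (-0.00) and with library totals (-0.04).

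RIOK1 (ENSG00000124784.9, chr6:7389793-7418037), an atypical kinase that also acts in maturation of the small ribosomal subunit, had the largest fold change of the 3 adaptors under the PRMT5 guides. It measured 40.8, 39.1 and 43.2 CPM in sgNeg, 50.4, 45.3 and 53.8 CPM in sgPRMT5-1 and 67.3, 64.8 and 62.8 CPM in sgPRMT5-2. The 6 libraries with a PRMT5 guide all lay above the controls, and those of sgPRMT5-2 all lay above those of sgPRMT5-1. The control mean was 41.0 ± 2.04 CPM (SD, n = 3), and the guide means were 49.8 ± 4.25 and 65.0 ± 2.28 CPM.

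RIOK1 was called higher in PRMT5KO against sgNeg, by 0.46 (SE 0.129, 95% interval 0.18 to 0.73, limma adjusted p = 0.0284). The guides did not contribute alike. In sgPRMT5-2 it was higher by 0.66 (SE 0.0899, limma adjusted p = 9.07e-06), and in sgPRMT5-1 the value was 0.26 (95% interval 0.03 to 0.50, limma adjusted p = 0.214). The difference between the guides was itself called, at 0.39 (SE 0.0921, limma adjusted p = 0.00540). With all 15 libraries in a single fit it was 0.38 and not called (limma adjusted p = 0.107). The pooled call was lost when any sgNeg library was left out (limma adjusted p = 0.114, 0.116 and 0.0759 without replicates 1, 2 and 3, at 0.44, 0.43 and 0.47). It was also lost without any sgPRMT5-2 library (limma adjusted p = 0.0561, 0.0603 and 0.0556, at 0.41, 0.41 and 0.43). The sgPRMT5-2 call held with each library left out, at 0.62 or more.

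Under the WDR77 guides, RIOK1 measured 62.8, 45.0 and 33.2 CPM in sgWDR77-1 and 56.8, 47.5 and 53.1 CPM in sgWDR77-2. The sgWDR77-1 libraries spanned from below the lowest control to near the sgPRMT5-2 level, and the sgWDR77-2 libraries all lay above the controls. RIOK1 was not called in WDR77KO against sgNeg (0.25, 95% interval -0.09 to 0.59, limma adjusted p = 0.492), where the value without sgWDR77-1 replicate 1 was 0.19. In sgWDR77-2 alone it was 0.34 (95% interval 0.11 to 0.58, limma adjusted p = 0.0879). In sgWDR77-1 alone it was 0.18, and -0.07 without replicate 1. For sgWDR77-2 against sgWDR77-1 it was 0.19 (limma adjusted p = 0.713), and 0.41 without that replicate. PRMT5KO and WDR77KO did not differ in RIOK1 past the threshold (0.22, 95% interval -0.07 to 0.51, limma adjusted p = 0.279), so the PRMT5KO call does not set it apart from WDR77KO. With 1 library left out that difference was between 0.0974 (without sgWDR77-1 replicate 3) and 0.29 (without sgWDR77-1 replicate 1), and limma called it in 0 of 12 such fits, the adjusted p lying between 0.148 and 0.630.

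COPRS (ENSG00000172301.11, chr17:31851871-31859291) measured 32.7, 30.9 and 32.8 CPM in sgNeg, a mean of 32.1 ± 1.07 (SD, n = 3). It measured 30.3, 34.1 and 39.6 CPM in sgPRMT5-1 and 44.6, 43.3 and 40.8 CPM in sgPRMT5-2. The sgPRMT5-1 libraries straddled the controls, and all 3 of sgPRMT5-2 lay above both. In sgWDR77-1 it measured 18.8, 29.8 and 23.5 CPM, all below the controls, and in sgWDR77-2 it measured 40.2, 35.7 and 36.5 CPM, all above them.

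COPRS was higher in sgPRMT5-2 than in sgNeg by 0.41 (SE 0.0990, limma adjusted p = 0.00250). In sgPRMT5-1 the value was 0.08 (95% interval -0.20 to 0.35, limma adjusted p = 0.792). The guides differed by 0.33 (SE 0.111, limma adjusted p = 0.0435), a call close to the threshold. It was lost with 5 of the 6 libraries left out in turn (limma adjusted p = 0.244 and 0.0973 without sgPRMT5-1 replicates 1 and 2, and 0.150, 0.137 and 0.0853 without sgPRMT5-2 replicates 1, 2 and 3), with library totals (limma adjusted p = 0.0635), with no filter (limma adjusted p = 0.0695) and in the fit of all 15 libraries (limma adjusted p = 0.134). In PRMT5KO pooled, COPRS stood at 0.24 (95% interval -0.03 to 0.52, limma adjusted p = 0.202). Without sgPRMT5-1 replicate 1 that value was 0.32 and was called (limma adjusted p = 0.0441).

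The WDR77 guides gave COPRS values of opposite sign. The log2 fold change against sgNeg was -0.41 in sgWDR77-1 (95% interval -0.77 to -0.05, limma adjusted p = 0.221; -0.26 without its replicate 1) and 0.21 in sgWDR77-2 (95% interval -0.03 to 0.46, limma adjusted p = 0.311). Between the guides it was 0.65 (SE 0.175, limma adjusted p = 0.198), with no overlap of libraries, and 0.48 without sgWDR77-1 replicate 1. In the fit of all 15 libraries that difference was called (0.66, limma adjusted p = 0.0201). Pooled, WDR77KO stood at -0.11 against sgNeg (95% interval -0.52 to 0.30, limma adjusted p = 0.853), and at 0.04 without sgWDR77-1 replicate 1. PRMT5KO against WDR77KO gave 0.37 (95% interval 0.03 to 0.70, limma adjusted p = 0.123), which was called with all 15 libraries in a single fit (limma adjusted p = 0.00792) and with the guides as separate groups (limma adjusted p = 0.0135), and in none of the other 7 settings. With 1 library left out it ranged from 0.23, without sgWDR77-1 replicate 1, to 0.44, and limma called it in 0 of 12 such fits, the adjusted p lying between 0.0560 and 0.276.

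Counted over the 5 members, calls are read against the share of all genes called, and members whose libraries did not overlap between groups against the share of all genes for which that held. In PRMT5KO against sgNeg, 2 of 5 members were called, PRMT5 lower and RIOK1 higher, where 17% of all 14071 genes tested were called (8.73% higher and 8.3% lower). The libraries of 2 members did not overlap, as in 19.2% of genes. In WDR77KO against sgNeg, 1 member was called, WDR77 lower, where 3.39% of genes were called (0.838% higher and 2.55% lower). The libraries of 1 member did not overlap, as in 10.6% of genes. In PRMT5KO against WDR77KO, 2 members were called, WDR77 higher and PRMT5 lower, where 14% of genes were called (7.99% higher and 6.01% lower). The libraries of 2 members did not overlap, as in 4.62% of genes. PRMT5 and WDR77 are the genes the guides target, and RIOK1 is the single untargeted member called in these 3 comparisons. The RIOK1 call held in 3 of 9 fits with 1 library left out, its limma adjusted p reaching 0.116.

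Guide by guide, 1 member was called in sgPRMT5-1 where 3.76% of genes were, and 3 in sgPRMT5-2 where 40.1% of genes were. In sgWDR77-1 it was 1 member where 2.71% of genes were called, and in sgWDR77-2 it was 1 where 4.97% were. The libraries of 2 members did not overlap sgNeg in sgPRMT5-1 (24.3% of all genes), those of 3 in sgPRMT5-2 (50.4%), those of 2 in sgWDR77-1 (24%) and those of 4 in sgWDR77-2 (25.5%). In sgPRMT5-2 against sgPRMT5-1, 2 members were called where 19.2% of genes were, and 2 did not overlap, as in 34.7% of genes. In sgWDR77-2 against sgWDR77-1, limma called 0 members, where 0.121% of genes were called, and 3 members did not overlap, as in 20% of genes. There, 2 members had an unadjusted p under 0.05. The share of all genes at that unadjusted cut is not given, for this count or for the later counts at it. Such counts therefore have no background to be read against. The calls of RIOK1 and COPRS in sgPRMT5-2 therefore stand in the comparison with the largest background of the 9.

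The counts of genes called moved with single libraries. PRMT5KO against sgNeg called 2397 genes, and 483, 673 and 1297 without sgNeg replicates 1, 2 and 3, and 1313, 1320 and 1395 without sgPRMT5-2 replicates 1, 2 and 3. Of these calls 51.3% were higher with all libraries, and 32.5%, 30.6% and 40.02% without sgNeg replicates 1, 2 and 3. WDR77KO against sgNeg called 477 genes, and 213, 259 and 199 without sgNeg replicates 1, 2 and 3. Of these 24.7% were higher with all libraries, and 19.7%, 11.97% and 10.1% without sgNeg replicates 1, 2 and 3. PRMT5KO against WDR77KO called 1962 genes, and 876, 905 and 977 without sgPRMT5-2 replicates 1, 2 and 3, 1300 without sgPRMT5-1 replicate 3, 969 and 1130 without sgWDR77-1 replicates 2 and 3, and 3178 without sgWDR77-2 replicate 1. For sgPRMT5-2 against sgNeg the count was 5693 and no left-out library moved it by over 1.5 times. For sgPRMT5-1 against sgNeg it was 530, and 241 without sgNeg replicate 1 and 211 and 296 without its replicates 2 and 3. For sgWDR77-1 against sgNeg it was 385, and 1003 without its replicate 1, 176 without its replicate 2 and 128, 141 and 56 without sgNeg replicates 1, 2 and 3, with 38.4% of the calls higher as fitted and 28.1%, 24.1% and 1.79% without those sgNeg libraries. For sgWDR77-2 against sgNeg it was 698, and 435, 430 and 450 without sgNeg replicates 1, 2 and 3 and 293 without its replicate 2. Between the PRMT5 guides it was 2690, and 1429, 1681 and 4711 without sgPRMT5-1 replicates 1, 2 and 3 and 1463, 1520 and 1602 without sgPRMT5-2 replicates 1, 2 and 3. Between the WDR77 guides it was 17, and 156 and 8 without sgWDR77-1 replicates 1 and 2 and 0, 1 and 2 without sgWDR77-2 replicates 1, 2 and 3. The calls of PRMT5 under its guides and of WDR77 under its guides held with each library left out.

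Reads at these loci can be shared with other genes. The antisense transcript PRMT5-AS1 covers 924 exon bases of PRMT5 (28.2%) and had 0 to 3 counts per library. The unnamed ENSG00000243960 covers 673 exon bases of WDR77 (25.1%) on the same strand, with 0 to 5 counts. Reads in such stretches may have been set aside as ambiguous, and whether the counting used strand is not given in the sources used here, so reads of an antisense partner cannot be told apart from those of the member. The processed pseudogenes CLNS1AP1 and PRMT5P1 had 0 counts and COPRSP1 had 0 to 1.

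ATP5PB, a subunit gene of the mitochondrial ATP synthase, is head to head with WDR77: their reference transcripts start 207 bases apart, and the genes share 90 exon bases (3.35% of those of WDR77). It had 1231 to 2312 counts per library. Its log2 fold change in WDR77KO was -0.02 (limma adjusted p = 0.959) beside -1.86 for WDR77. In PRMT5KO, ATP5PB was higher by 0.37 (limma adjusted p = 0.0117). RBM23, 1343 bases from PRMT5, stood at 0.01 in PRMT5KO (limma adjusted p = 0.939), and the divergent transcript PRMT5-DT, 199 bases away, at -0.61 with an SE of 0.621 on 2 to 18 counts.

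Of the members' nearest or overlapping genes, 12 passed the filter on low counts over all libraries. The others of the 6 overlapping genes, PRMT5-AS1, ENSG00000243960, RNU7-59P and a Y_RNA, had 0 to 5 counts per library and were not tested. Over the 12 genes, 3 were called in PRMT5KO against sgNeg, where 17% of all genes were. Besides ATP5PB these were both neighbours of COPRS: UTP6, a small-subunit processome gene, was higher by 0.41 (limma adjusted p = 0.0314), and RAB11FIP4 was lower by -0.54 (limma adjusted p = 0.0312). In WDR77KO limma called 0 of 12 (3.39% of all genes), and 1 had an unadjusted p under 0.05. By guide, limma called 0 of 11 tested in sgPRMT5-1 (3.76% of all genes), where 3 had an unadjusted p under 0.05. It called 3 of 12 in sgPRMT5-2 (40.1%), where 5 had an unadjusted p under 0.05. In sgWDR77-1 it called 0 of 12 (2.71%), where 2 had an unadjusted p under 0.05. In sgWDR77-2 it called 1 of 11 (4.97%), UTP6 (0.39, limma adjusted p = 0.0499), and 2 had an unadjusted p under 0.05. Of the others in PRMT5KO, the CLNS1A neighbours RSF1 and PAK1 stood at -0.04 and 0.11 and RAP1A near WDR77 at 0.03, none of them called. AQP11, which overlaps CLNS1A, stood at -0.21, and the RIOK1 neighbours CAGE1 and DSP-AS1 at -0.58 and 0.46. ENSG00000260948 near WDR77 stood at 1.07 in PRMT5KO and 1.11 in WDR77KO. These scarce genes, with 1 to 18 counts per library, were not called in PRMT5KO or WDR77KO.

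Genes that act with the methylosome were followed as lists. The lists were chosen with earlier results of these data known, so their shares and medians are descriptions and not independent support. Their calls are read against the 17% of all genes called in PRMT5KO against sgNeg and the 14% called in PRMT5KO against WDR77KO. In PRMT5KO against sgNeg, 10% of the genes tested were called in the Sm and SMN list, 25% in methionine metabolism, 28.6% among methyltransferases, 19% among partners, 25% among substrates and 57.1% in the small-subunit list, each of 7 to 21 genes. In PRMT5KO against WDR77KO these shares were 10%, 16.7%, 14.3%, 19%, 20% and 28.6%. All of these shares pool both guides to a gene, and no list is given by guide. Against sgNeg, 3.76% of all genes were called in sgPRMT5-1 and 40.1% in sgPRMT5-2. Sm and LSm proteins and the SMN complex, which pICln and PRMT5 serve in assembling spliceosomal particles, had 20 of 22 genes tested. In PRMT5KO, 2 were higher and 0 lower, STRAP (0.43, limma adjusted p = 0.00779) and GEMIN5 (0.40, limma adjusted p = 0.0373), with a list median of 0.11 beside -0.01 over all genes. STRAP, an SMN complex partner, was the most abundant of the list per length in sgNeg, at 157 CPM per kb. SNRPN had 0 counts in sgNeg, and GEMIN7 had 1 to 2.

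The list of S-adenosylmethionine and methylthioadenosine metabolism holds genes for supply and use of the methyl donor of PRMT5. It also holds genes for formation and clearance of methylthioadenosine, an inhibitor of PRMT5. In PRMT5KO, 3 of 12 were higher and 0 lower, with a list median of 0.09. They were SMS (0.26, limma adjusted p = 0.0156), MAT2A, which makes the methyl donor (0.41, limma adjusted p = 0.0277), and ADI1 (0.59, limma adjusted p = 0.0381). MTAP was present at 727 to 876 counts per sgNeg library, a value looked up after the data were seen. SMS, the spermine synthase, was the most abundant of the list at 182 CPM per kb.

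Of the other arginine methyltransferases, 7 of 8 were tested, PRMT8 having 0 counts in sgNeg. PRMT1, the main enzyme for asymmetric marks, was higher in PRMT5KO by 0.31 (limma adjusted p = 0.0273), and CARM1 by 0.37 (limma adjusted p = 0.0413), with 0 lower and a list median of 0.11. PRMT1 was also the most abundant, at 39.0 CPM per kb in sgNeg. In PRMT5KO against WDR77KO, PRMT1 was again called, at 0.32 (limma adjusted p = 0.0406).

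The RIO kinases and factors of small-subunit maturation, the pathway RIOK1 belongs to, had the highest list median of the 6 in PRMT5KO, 0.44 over 7 genes, beside -0.01 over all genes. Of the 7, 4 were higher and 0 lower: TSR1 (0.52, limma adjusted p = 0.0246), BYSL (0.63, limma adjusted p = 0.0262), LTV1 (0.70, limma adjusted p = 0.0269) and RIOK3 (0.26, limma adjusted p = 0.0331). NOB1, the endonuclease that trims the small-subunit RNA, was the most abundant at 39.8 CPM per kb. In WDR77KO the list median was 0.06 and limma called 0 of 7 (3.39% of all genes), with 1 at an unadjusted p under 0.05. Between PRMT5KO and WDR77KO the median difference of the list was 0.36 beside 0.02 over all genes, with no test of the median, and RIOK3 (0.38, limma adjusted p = 0.00365) and BYSL (0.62, limma adjusted p = 0.0150) were higher.

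Other partners, regulators and readers of PRMT5 numbered 21, all tested. In PRMT5KO, 2 were higher, LYAR (0.61, limma adjusted p = 0.0128) and MBD2 (0.31, limma adjusted p = 0.0148), and 2 were lower, AJUBA (-2.59, limma adjusted p = 0.00524) and JMY (-0.41, limma adjusted p = 0.0262), with a median of 0.09. AJUBA, a LIM-domain protein, was scarce: 10 to 23 counts per library in sgNeg, 1 to 3 in sgPRMT5-1 and 1 to 6 in sgPRMT5-2. It lies on the same chromosome as PRMT5, at chr14:22971177-22982551, 41769 bases away, a position looked up after its value was seen. In WDR77KO its value was -1.24 and was not called (limma adjusted p = 0.104). CCND1, cyclin D1, was the most abundant of the list at 259 CPM per kb, and was higher in PRMT5KO than in WDR77KO by 0.41 (limma adjusted p = 0.00765), as was its kinase CDK4 by 0.50 (limma adjusted p = 0.0454).

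Among 20 other PRMT5 substrates, 4 were higher and 1 lower in PRMT5KO, with a median of 0.08. NCL, the nucleolin that RIOK1 brings to PRMT5, was higher by 0.42 (limma adjusted p = 0.00889), as were RUVBL1 (0.41, limma adjusted p = 0.0237) and SUPT5H (0.49, limma adjusted p = 0.0380). The remaining call, named after its value was seen, was the flap endonuclease FEN1 (0.32, limma adjusted p = 0.0469). PDCD4, a translation inhibitor, was lower by -0.73 (limma adjusted p = 0.0126). In PRMT5KO against WDR77KO, 3 were higher and 1 lower, SUPT5H (0.51), RELA (0.29) and EGFR (0.22) against PDCD4 (-0.57). HNRNPA1 was the most abundant substrate, at 148 CPM per kb in sgNeg.

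In WDR77KO against sgNeg, where 3.39% of all genes were called, limma called 0 genes in all 6 of these lists. At an unadjusted p under 0.05 there were 2 in the Sm and SMN list, 0 in the methionine list, 1 among the methyltransferases, 4 among partners, 0 among substrates and 1 in the small-subunit list. The 3.39% is no background for these counts, and the share of all genes at the unadjusted cut is not given. The list medians there lay between -0.01 and 0.06, beside 0.00 over all genes. In PRMT5KO against WDR77KO, the remaining calls were SNRPF (0.33) and SNRPE (0.31) higher among Sm genes, ENOPH1 (0.36) higher and MTR (-0.31) lower in methionine metabolism, and SND1 (0.23) higher and TDRKH (-0.43) lower among readers. The list calls rest on few libraries. Of 20 list genes called in PRMT5KO, 2 were called without sgNeg replicate 1, 2 without replicate 2 and 11 without replicate 3. Without sgPRMT5-2 replicates 1, 2 and 3 the counts were 10, 8 and 11. Without sgPRMT5-1 replicates 1, 2 and 3 they were 20, 20 and 12. Of 15 list genes called in PRMT5KO against WDR77KO, 4 to 15 were called with 1 library left out. None of these list genes changed sign in any alternative that was run.

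**Figure D4:**
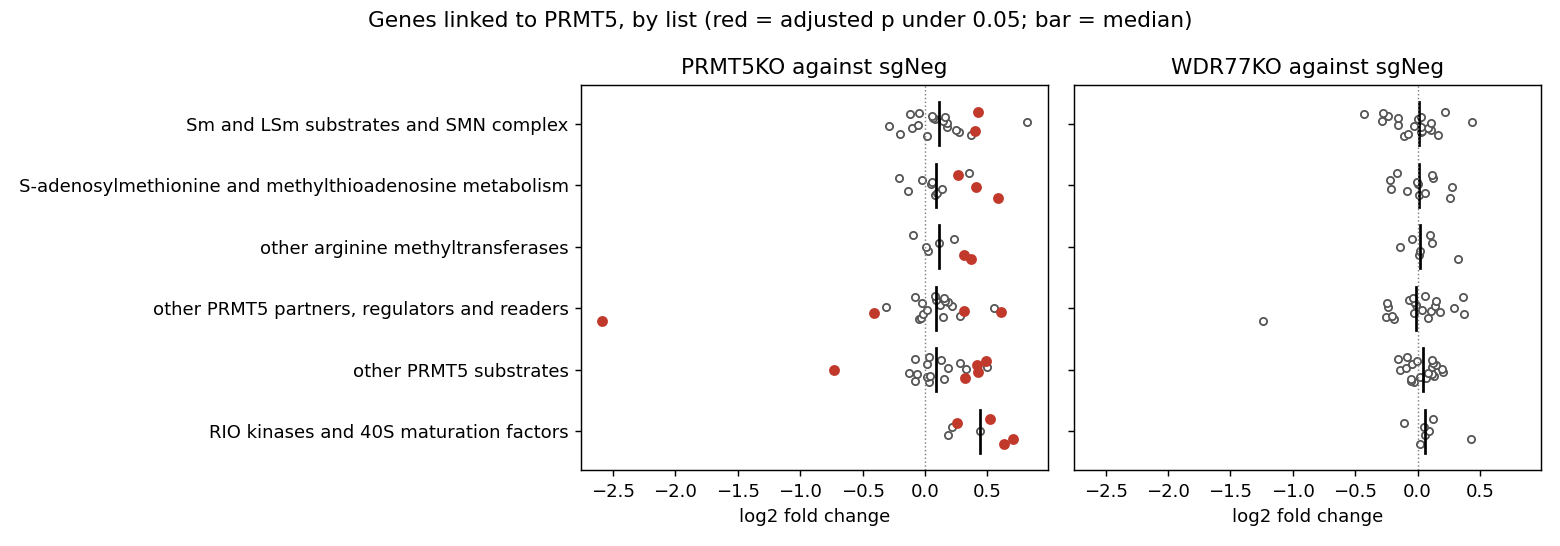
Log2 fold change (horizontal axis, shared) of every tested gene of the 6 lists in PRMT5KO and WDR77KO against sgNeg; points are genes, filled red where the limma adjusted p was under 0.05, and bars are list medians. The small-subunit list has a median of 0.44 in PRMT5KO and 0.06 in WDR77KO, and no point is filled in WDR77KO. The lists were chosen with earlier results of these data known.

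Genes with the most similar profile over the 15 libraries were found by Pearson correlation of log2 CPM among 8955 genes with a mean of at least 10 CPM. The libraries share 5 groups, so a correlation describes group differences as much as library differences and carries no p. WDR77 was closest to FAM20C (r = 0.951), SMAD3 (0.934) and TMCC3 (0.929) and farthest from JAG1 (-0.900). PRMT5 had looser company, METTL22 (0.782), HSPB1 (0.779) and IGFBP3 (0.767), with MPZL1 lowest (-0.843). CLNS1A was closest to CHAF1B (0.928), PPIA (0.910) and YWHAE (0.899), and farthest from LTBP3 (-0.861). RIOK1 was closest to GTPBP4 (0.963), KPNA3 (0.957) and KIF13A (0.953), and farthest from THNSL2 (-0.928). COPRS was closest to TIMM50 (0.954), TUBB (0.952) and RPS7 (0.950), and farthest from ZNF91 (-0.927).

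No member was among the 3 genes closest to another member. Between members over the same 15 libraries, CLNS1A and RIOK1 had the highest correlation (r = 0.676), and PRMT5 and WDR77 the lowest (r = -0.694), each of them being low under its own guides. With group means removed, CLNS1A and RIOK1 stood highest at 0.787, followed by WDR77 and COPRS (0.775), PRMT5 and COPRS (0.695) and PRMT5 and WDR77 (0.441). The lowest were WDR77 with CLNS1A (-0.625) and with RIOK1 (-0.592). Both adaptors were high in sgWDR77-1 replicate 1, at 161 and 62.8 CPM, where COPRS (18.8 CPM) and WDR77 (30.8 CPM) were the lowest of their group. All of these correlations include that library, and none is given without it. The size and the sign of those with group means removed may therefore rest on it.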

How the data were processed

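The authors deposited read counts per gene, 1 file per library, made from single-end reads with STAR and htseq-count on hg38, and tested them with DESeq2, per their methods and the submitters' processing notes. The annotation release and the strand setting of the counting are not given in the sources used here. Of the reads listed in each file, 2.75% to 7.16% fell in no gene, 7.09% to 7.93% were ambiguous and 9.49% to 13.1% were not uniquely aligned. These reads were left out of library totals and tests, so a gene that shares exon bases with another can be undercounted. Of 60649 gene IDs, 60507 matched GENCODE v44, which gave positions, exon lengths (the union of a gene's exons) and transcript sequences; the recoded codons are those the study gives for its resistant cDNAs.

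From the counts, TMM scaling factors were computed by hand-written code (log ratio trim 0.3, mean level trim 0.05). Genes with a mean scaled count of at least 3 in a comparison were tested in limma 3.58.1 with voom weights (R 4.3.3), two-sided, with Benjamini-Hochberg adjustment over all genes tested, a threshold of 0.05 and 95% intervals. The plan was a count model if the count columns could be read by the unit check and limma with voom otherwise, and the latter was used. Each comparison was fitted on its own libraries alone. Log2 CPM used a prior count of 2. The fitting code was first run on simulated counts with known changes.

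The genes named are all 5 members in every comparison. From each list they are up to 4 called genes per pooled comparison by smallest adjusted p and the most abundant gene per length in sgNeg. They also include the nearest gene on each side and overlapping genes of each member, the 3 most and the 1 least correlated genes among those with at least 10 CPM, and the most abundant cell type markers. Markers with counts at or near 0 are named as well. The members and lists were chosen with earlier results of these data known.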

Additional observations from a re-analysis of the deposited data

Results flagged for a closer look

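Of the comparisons between guides to the same gene, those of the PRMT5 guides differed in 2 members. RIOK1 was higher in sgPRMT5-2 than in sgPRMT5-1 by 0.39 (log2, limma adjusted p = 0.00540), in 3 against 3 libraries that did not overlap. COPRS was higher by 0.33 (limma adjusted p = 0.0435), also without overlap. In fits with 1 library left out, the COPRS call held in 1 of 6. With all 15 libraries in a single fit neither difference was called (limma adjusted p = 0.107 for RIOK1 and 0.134 for COPRS). Both guides target PRMT5, whose own level differed between them by 0.23, not past the threshold (limma adjusted p = 0.146). Without sgPRMT5-1 replicate 3 that PRMT5 difference was 0.32 and was called (limma adjusted p = 0.0117).

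Between the knockouts of the 2 core genes, 2 members differed. PRMT5 was lower in PRMT5KO than in WDR77KO by -0.68 (limma adjusted p = 0.00101) and WDR77 was higher by 1.99 (limma adjusted p = 2.33e-06), each in 6 against 6 libraries that did not overlap. Both are the genes targeted. Within PRMT5KO and WDR77KO, the gap of the highest and of the lowest library to its nearest neighbour was set against the range of the group for each member, 20 sides in all, and 0 passed Dixon's 95% critical value. These groups pool both guides, so a difference between guides widens the range. A library apart from the others of its guide may not show in this check.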

How the results depend on the processing

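With another scaling, filter, weighting, block or grouping, the members of the pooled comparisons kept their direction and their side of the threshold in 131 of 135 cases, and those of the guide comparisons in 229 of 240. The called list genes did so in 282 of 314 and were no longer called in 32. With 1 library left out these were 139 of 150, 165 of 180 and 192 of 360, with 168 no longer called. In every change given here the cause was not tested.

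With RLE size factors, CLNS1A in PRMT5KO against WDR77KO was -0.00204 and PRMT5 in sgWDR77-1 against sgNeg -0.00366. With library totals alone these were -0.0411 and -0.0153, WDR77 in sgPRMT5-2 against sgNeg was -0.0204, COPRS in sgPRMT5-2 against sgPRMT5-1 was 0.30 and sgWDR77-2 against sgWDR77-1 called 11 genes. With library totals the share of called genes that were higher was 34.0% in PRMT5KO against sgNeg (51.3% with TMM), 37.7% in PRMT5KO against WDR77KO (57.1%), 27.8% in sgPRMT5-1 (40.4%) and 39.5% in sgPRMT5-2 (52.0%). No scaling moved the median of all genes by over 0.1.

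With no filter, COPRS in sgPRMT5-2 against sgPRMT5-1 was 0.33, WDR77 in sgWDR77-2 against sgWDR77-1 was -0.86, and 987 genes were called in sgPRMT5-1 against sgNeg and 127 in sgWDR77-2 against sgWDR77-1. With all 15 libraries in a single fit, COPRS was 0.37 in PRMT5KO against WDR77KO, 0.32 in sgPRMT5-2 against sgPRMT5-1 and 0.66 in sgWDR77-2 against sgWDR77-1. In that fit RIOK1 in sgPRMT5-2 against sgPRMT5-1 was 0.38, WDR77 in sgWDR77-2 against sgWDR77-1 was -0.85 and PRMT5 in sgWDR77-1 against sgNeg was -0.0183. It called 3813 genes in PRMT5KO against WDR77KO, 1187 in WDR77KO and 1333 in sgWDR77-1 against sgNeg, 1059 in sgPRMT5-2 against sgPRMT5-1 and 339 in sgWDR77-2 against sgWDR77-1. With the guides as separate groups, COPRS in PRMT5KO against WDR77KO was 0.37, and 3641 genes were called there and 4347 in PRMT5KO against sgNeg.

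With the replicate number as a replicate block, 1529 genes were called in sgPRMT5-1 against sgNeg (530 without the block). In sgWDR77-2 against sgNeg 380 were called (698 without it), and no member's call changed. Deviations from group means were correlated for 30 pairs of libraries with the same number in different groups. In 2 pairs r was over 0.1 (range -0.209 to 0.175). Whether libraries with the same number were handled together is not given in the sources used here, and these correlations cannot decide it.

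With 1 library left out in turn, RIOK1 in PRMT5KO against sgNeg ranged from 0.41 to 0.51, COPRS there from 0.20 to 0.32 and COPRS in WDR77KO from -0.19 to 0.0368. CLNS1A in PRMT5KO against WDR77KO ranged from -0.0405 to 0.0524, with -0.0112 and -0.0345 as its other negative values. COPRS in sgPRMT5-1 against sgNeg ranged from -0.0315 to 0.19. In sgWDR77-1 against sgNeg, PRMT5 ranged from -0.11 to 0.11 (-0.0629 was its other negative value), CLNS1A from -0.11 to 0.12 (the other negative value was -0.0322) and RIOK1 from -0.0714 to 0.40. In sgPRMT5-2 against sgPRMT5-1, CLNS1A ranged from -0.0702 to 0.0133, COPRS from 0.22 to 0.43 and PRMT5 from 0.14 to 0.32. In sgWDR77-2 against sgWDR77-1, RIOK1 ranged from -0.0237 to 0.41 and WDR77 from -1.13 to -0.71.

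The number of genes called with 1 library left out ranged from 483 to 3562 in PRMT5KO, 199 to 677 in WDR77KO, 211 to 510 in sgPRMT5-1, 56 to 1003 in sgWDR77-1 and 293 to 661 in sgWDR77-2 against sgNeg. It ranged from 876 to 3178 in PRMT5KO against WDR77KO, 1429 to 4711 in sgPRMT5-2 against sgPRMT5-1 and 0 to 156 in sgWDR77-2 against sgWDR77-1.

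The quasi-likelihood test and the tool of the study were planned as alternatives and were not run. Each group has 3 libraries of 5146711 to 6730428 reads on genes, and the control group enters 6 comparisons. The reference transcript length and the unshared exon bases were chosen as alternatives after the data were seen.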
